A study of Mus musculus with 48 samples.

Results

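The 10 genes described here encode the fatty acid elongases Elovl1 to Elovl7 and the front-end and related desaturases Fads1, Fads2 and Fads3 of the mouse. They were taken by gene symbol from the 56748 Ensembl identifiers of the count files, and all 10 were found. RNA of male mice had been sequenced as 48 libraries in 12 groups of 4, from the liver, from brown fat (brown adipose tissue, BAT) and from the white fat at the epididymis (eWAT). The groups were hepAGT+/+ mice (here WT) at room temperature (RT, 20 to 22 °C), hepAGT-/- mice (here KO), in which angiotensinogen (Agt) is deleted in hepatocytes, at RT, WT mice at thermoneutrality (TN, 30 °C) and KO mice at TN, each in the 3 tissues. All of them, controls included, were littermates that ate a Western diet (TD.88137, milk fat 21%, cholesterol 0.2%) for 12 weeks. The mice's age, and the promoter or Cre line behind the hepatocyte deletion, are not given in the sources used here. Each library carries its own biological replicate number within its tissue and group.

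Elongases add a 2-carbon unit to a fatty acyl-CoA in the endoplasmic reticulum and carry out the first, rate-limiting condensation of a cycle that Hsd17b12, the Hacd dehydratases and Tecr complete. Elovl1, Elovl3, Elovl6 and Elovl7 act mainly on saturated and monounsaturated chains, Elovl2 and Elovl5 on polyunsaturated chains, and Elovl4 makes the very longest chains of retina, skin and brain. Fads2 and Fads1 insert double bonds in turn with Elovl5 and Elovl2, so that dietary linoleate becomes arachidonate and alpha-linolenate becomes docosahexaenoate, a task known best from liver. In brown fat, Elovl3 and Elovl6 are known as genes of the cold-stimulated state, in which new fatty acids are made and burned at the same time.

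On GRCm38 (GENCODE M21) the 3 desaturase genes lie side by side on chromosome 19, Fads3 (ENSMUSG00000024664) at chr19:10041569-10060110 on the plus strand, Fads2 (ENSMUSG00000024665) at chr19:10062765-10101746 on the minus strand and Fads1 (ENSMUSG00000010663) at chr19:10182888-10196877 on the plus strand. Fads3 and Fads2 are 2.7 kb apart, and Fads2 and Fads1 81.1 kb. Elovl3 (ENSMUSG00000038754) is on the same chromosome at chr19:46131897-46135694. Elovl6 (ENSMUSG00000041220) is at chr3:129532355-129638495, Elovl5 (ENSMUSG00000032349) at chr9:77917364-77984519, Elovl4 (ENSMUSG00000032262) at chr9:83778692-83806277, Elovl2 (ENSMUSG00000021364) at chr13:41182381-41220405, Elovl7 (ENSMUSG00000021696) at chr13:108214404-108285683 and Elovl1 (ENSMUSG00000006390) at chr4:118428093-118432953. Exons of Elovl1 share 53 bases (1.94% of its exon length) with Cdc20, those of Elovl3 share 10 (0.506%) with Pitx3, and those of Elovl6 share 34 (0.529%) with Gm35986, each on the opposite strand. Whether the counting used strand is not given in the sources used here. The other 7 genes share no exon base with another gene.

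Promoter windows of 300 bases, from 250 before to 50 after the RefSeq start (GRCm38.p6), were found for 8 of the 10 genes, in 10 windows. Elovl3 and Fads1 had no window. The windows of Elovl6 and Elovl5, 2 elongase genes that fell in BAT at TN, and of Fads2, a desaturase gene that rose there in WT, are shown 5′ to 3′ on the strand of the gene. Capitals mark the 5 motifs searched on both strands, which are the NF-Y motif CCAAT, the GC box with the letters GGGCGG, the E-box form CACGTG, the cAMP response element TGACGTCA and TCACNCCAC, a form of the sterol response element, and a motif matched on the other strand stands as its reverse complement.
Elovl6, chr3:129532136-129532435, plus strand: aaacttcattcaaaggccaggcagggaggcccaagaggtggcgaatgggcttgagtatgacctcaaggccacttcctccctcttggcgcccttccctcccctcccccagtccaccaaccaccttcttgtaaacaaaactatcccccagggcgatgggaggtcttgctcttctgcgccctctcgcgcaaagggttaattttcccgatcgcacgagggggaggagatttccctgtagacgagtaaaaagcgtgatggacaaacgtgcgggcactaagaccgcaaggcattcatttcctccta
Elovl5, chr9:77917115-77917414, plus strand: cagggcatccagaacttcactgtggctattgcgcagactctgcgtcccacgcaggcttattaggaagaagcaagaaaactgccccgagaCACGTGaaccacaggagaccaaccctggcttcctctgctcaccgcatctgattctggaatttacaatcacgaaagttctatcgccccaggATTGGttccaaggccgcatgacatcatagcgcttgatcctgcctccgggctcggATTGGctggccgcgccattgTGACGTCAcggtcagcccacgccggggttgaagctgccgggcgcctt
Fads2, chr19:10101454-10101753, minus strand: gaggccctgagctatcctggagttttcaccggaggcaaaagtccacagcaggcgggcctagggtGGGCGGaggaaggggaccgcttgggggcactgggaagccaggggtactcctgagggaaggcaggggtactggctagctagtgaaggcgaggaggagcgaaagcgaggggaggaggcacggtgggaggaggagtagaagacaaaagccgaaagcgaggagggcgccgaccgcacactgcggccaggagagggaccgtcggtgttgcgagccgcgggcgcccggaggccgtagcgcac
The Elovl6 window held none of the 5 motifs. The Elovl5 window held CCAAT 2 times, CACGTG 1 time and TGACGTCA 1 time, and the Fads2 window held GGGCGG 1 time. Of all 32817 mouse windows of this length, 37.4% hold CCAAT, 35.6% GGGCGG, 7.15% CACGTG, 1.79% TGACGTCA and 1.24% TCACNCCAC. No window of these genes held TCACNCCAC, which says only that those letters are not within this stretch.

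A library held between 23711728 and 36503849 counts in liver, 25304872 and 39383039 in BAT, and 28656921 and 43687848 in eWAT. Levels are CPM, a gene's counts relative to the total of its library, scaled over the 48 libraries by edgeR's TMM factors, and changes are log2 fold changes from edgeR with their standard errors (SE). Sums of marker genes are plain CPM of the library total, without TMM factors, and are not on the same scale as the levels. A gene was called when its adjusted p was under 0.05, by the quasi-likelihood test with Benjamini-Hochberg adjustment across every tested gene. Agt in liver, the label check, stood at 424 ± 88.4 CPM in the WT RT group (SD, n = 4), 194 ± 31.6 in KO RT, 482 ± 99.3 in WT TN and 193 ± 40.7 in KO TN. It was lower in KO by the edgeR test at both temperatures (log2 change -1.14, adjusted p = 0.0096, and -1.29, adjusted p = 0.00113) without being absent. Ucp1, the defining marker of brown fat, was at 1192 CPM or more in all 16 BAT libraries and at 1.83 CPM or less in eWAT, and it was at 0 in 15 of 16 liver libraries and at 17 CPM in liver KO RT replicate 19. The summed level of 8 hepatocyte markers was 56564 to 95324 CPM in liver and at most 2805 CPM in BAT.

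Each tissue had its own leading enzymes. Per kilobase of exon, where levels of different genes can be compared, Fads2 led in liver with 333 CPM per kb averaged over 16 libraries, followed by Elovl5 with 255, Elovl2 with 168 and Fads1 with 121. These 4 genes of the polyunsaturated route made up most of the liver's elongase and desaturase transcripts, with 34% for Fads2 alone. In BAT the order was different. Elovl6 led with 111 CPM per kb (43.3% of the 10 genes' sum) and Elovl3 followed with 91.5 (35.7%). In eWAT Fads3, whose product acts on sphingoid bases, held 67.2% of the sum with 153 CPM per kb, ahead of Elovl5 with 24.2 and Fads1 with 21. The leader within BAT differed between the 4 groups. Elovl6 was first in WT RT, Elovl3 in KO RT, Fads3 in WT TN and Elovl5 in KO TN, and the 10 genes' sum was 415, 466, 74.8 and 70 CPM per kb in that order. The KO RT mean of Elovl3 includes replicate 10, at 698 CPM against 339 to 349 CPM in the other 3.

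**Figure D1:**
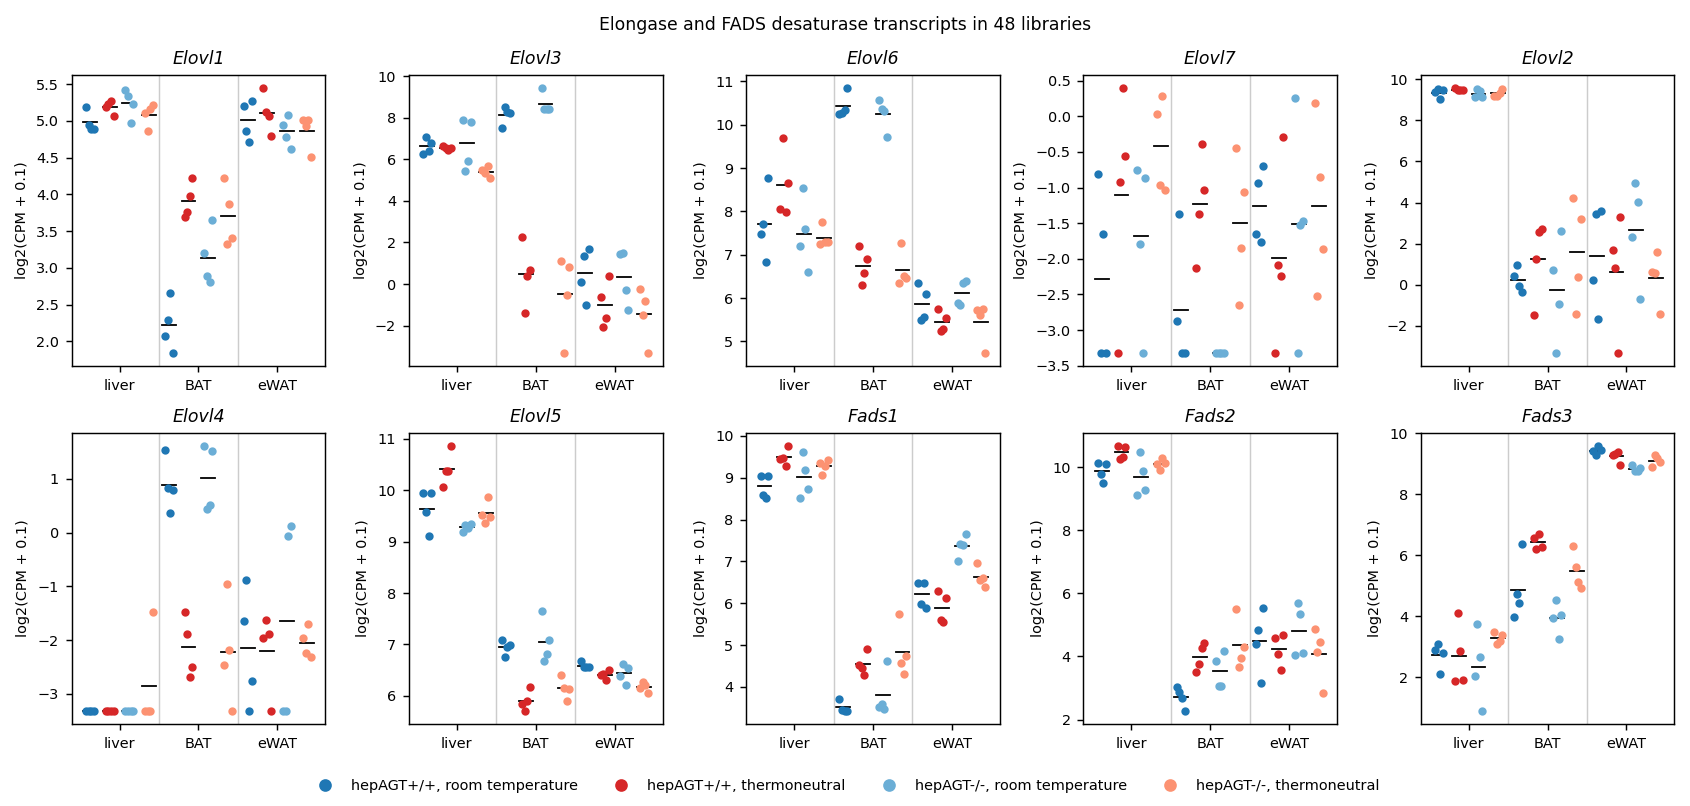
Level of each of the 10 genes in every library, as log2(CPM + 0.1) on the vertical axis, by tissue, genotype and housing. Each point is a library and each line the mean of the 4 log2 values of its group. Fads2, Elovl5, Elovl2 and Fads1 sit highest in liver, Elovl3 and Elovl6 in BAT at room temperature, and Fads3 in eWAT.

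Elovl2, Fads2, Fads1 and Elovl5 were far higher in liver than in either fat. Elovl2 had a mean of 664 ± 77.9 CPM (SD, n = 16) in liver, 3.52 ± 4.83 in BAT and 6.07 ± 8.36 in eWAT. Fads2 had 1096 ± 315 CPM in liver, 14.6 ± 9.64 in BAT and 24.1 ± 12.9 in eWAT. For both genes the lowest liver library stood above the highest fat library. Fads1 had 584 ± 149, 20.1 ± 11.1 and 101 ± 46 CPM in liver, BAT and eWAT, and Elovl5 had 898 ± 355, 98.2 ± 40.2 and 85.2 ± 10.7 CPM. The difference between liver and BAT was called for all 10 genes, 3 of them higher (37% of all genes) and 7 lower (31.6%) in BAT (68.6% of 21910 genes tested were called), that between liver and eWAT for 8 of 10 (73.8%), and that between BAT and eWAT for 7 of 10 (60.3%). The counts for eWAT are near those backgrounds. Elovl5 did not pass between the 2 fats (log2 change BAT minus eWAT 0.13, SE 0.08, adjusted p = 0.19 in edgeR).

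Fads3 ran the other way, with 7.64 ± 4 CPM in liver, 47 ± 32.4 in BAT and 579 ± 103 in eWAT (n = 16 each). Every eWAT library stood above every BAT library, and the log2 difference BAT minus eWAT was -3.85 (SE 0.24, edgeR adjusted p = 8.42e-17). Elovl1, which elongates saturated chains for sphingolipids, was 35 ± 4.08 CPM in liver, 31.5 ± 5.39 in eWAT and 10.5 ± 4.88 in BAT, where all 16 libraries lay below those of both other tissues. Elovl6, which lengthens palmitate to stearate, had 713 ± 655 CPM in BAT, 261 ± 182 in liver and 55.1 ± 16.6 in eWAT. Elovl3 had 181 ± 211 CPM in BAT, 95 ± 60 in liver and 1.06 ± 1.06 in eWAT. The SDs of Elovl3 and Elovl6 in BAT are as large as their means because of housing. The fitted contrast for Elovl3 was lower in BAT than in liver (log2 -1.94, SE 0.36, adjusted p = 1.13e-05) although its mean CPM was higher, since that contrast averages the log2 levels of the 4 groups.

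Elovl4 and Elovl7 were scarce. Elovl4 was at 0 counts in 15 of 16 liver libraries and at 0.259 CPM in KO TN replicate 5, and it averaged 1.05 ± 1.07 CPM in BAT and 0.231 ± 0.296 CPM in eWAT. Elovl7 averaged 0.43 ± 0.384 CPM in liver, 0.19 ± 0.228 in BAT and 0.354 ± 0.338 in eWAT. Ordered by mean over the 12 groups, no pair of neighbouring groups was apart for Elovl7, 1 of 11 was apart for Elovl2, Elovl4 and Fads3, 2 of 11 for Elovl1, Elovl3, Elovl6, Fads1 and Fads2, and 5 of 11 for Elovl5. Most neighbours in these orders therefore overlapped.

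The small amounts of Elovl2 in fat varied with albumin mRNA (Alb), the defining transcript of hepatocytes. In eWAT, Elovl2 was 4.9, 31.2, 16.2 and 0.524 CPM in KO RT replicates 10, 16, 19 and 9, where Alb was 513, 2254, 1089 and 59.6 CPM. In BAT, the highest Elovl2 level, 18.5 CPM, came from KO TN replicate 2, which also had the most Alb, 1557 CPM. Per 1000 Alb counts, liver held 8.34 to 16.6 Elovl2 counts (median 10.8, 16 libraries) and eWAT 7.37 to 15.4 (median 11.6, over the 14 libraries with at least 10 Elovl2 counts). BAT held a median of 12.4 over 13 such libraries, with a range from 6.92 to 130.4 whose top came from a library with 12 Elovl2 counts. Fads2 mostly stood above the liver's ratio in fat. It had 9.42 to 25.8 counts per 1000 Alb counts in liver, but 23.2 to 656 in eWAT (median 96.8) and 18.5 to 2576 in BAT (16 libraries each). The lowest fat ratios came from libraries rich in Alb and lay within the liver range. They were 23.2 in eWAT KO RT replicate 16 (Alb 2254 CPM) and 18.5 in BAT KO TN replicate 5 (Alb 1067 CPM). The highest came from libraries with little Alb, eWAT WT TN replicate 7 (18 CPM) and BAT KO RT replicate 19 (3.22 CPM). How hepatocyte transcripts came into the fat libraries was not tested.

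**Figure D2:**
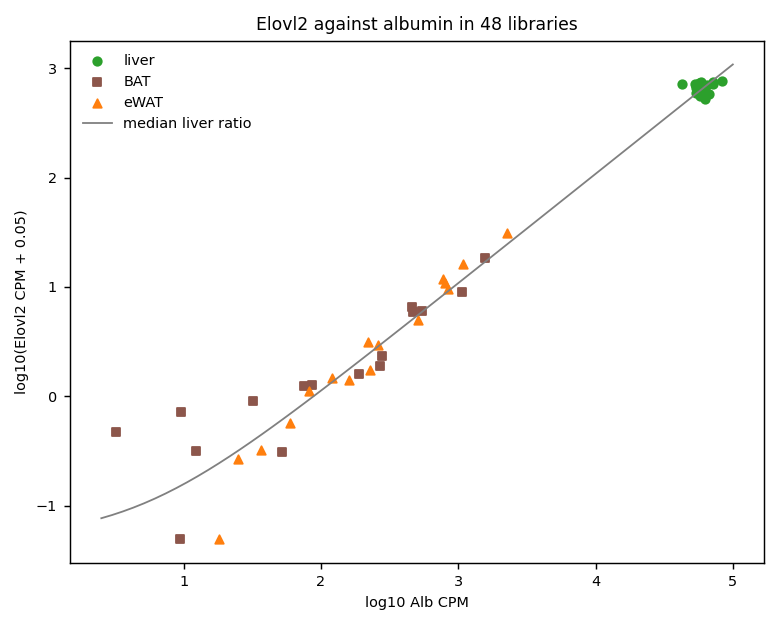
Elovl2 against albumin in the 48 libraries, as log10(Elovl2 CPM + 0.05) on the vertical axis and log10 Alb CPM on the horizontal axis, with a line at the median liver ratio of 10.8 Elovl2 counts per 1000 Alb counts. Most BAT and eWAT libraries lie near the line drawn from liver, and a few BAT libraries with little Alb lie above it.

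Housing calls among these genes came from BAT alone within a tissue, and Elovl3, Elovl6, Elovl4 and Elovl5 fell at TN in both genotypes. Elovl3, which makes very long saturated and monounsaturated chains, was 181, 364, 310.3 and 298 CPM in WT RT replicates 12, 15, 17 and 18, and 4.78, 0.286, 1.22 and 1.51 CPM in WT TN replicates 24, 6, 7 and 1. In KO it was 698, 339, 349 and 339 CPM in RT replicates 10, 14, 19 and 9, and 2.09, 0, 0.598 and 1.64 CPM in TN replicates 2, 3, 4 and 5. The highest TN library, at 4.78 CPM, stood far below the lowest RT library, at 181 CPM. Elovl3 was 149-fold lower at TN in WT (log2 change -7.22, SE 0.99, edgeR adjusted p = 0.000196) and 404-fold lower in KO (-8.66, SE 1.06, adjusted p = 0.000215).

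Elovl6 was 1217, 1243, 1288 and 1847 CPM in WT RT and 148, 78.5, 96 and 119 CPM in WT TN, in the same order of replicates. In KO it was 1519, 1307, 1280 and 847 CPM at RT and 80.9, 155, 91.5 and 88.3 CPM at TN. The lowest RT library thus stood well above the highest TN library, and the fall was 12.8-fold in WT (log2 change -3.67, SE 0.27, edgeR adjusted p = 1.37e-07) and 12.2-fold in KO (-3.61, SE 0.27, adjusted p = 2.13e-07). Elovl6 was still at 104 ± 34.1 CPM in KO TN and 110.3 ± 29.9 CPM in WT TN, whereas Elovl3 was at 1.08 ± 0.955 and 1.95 ± 1.96 CPM.

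Across all 10 genes, 7 were called in WT, 3 higher and 4 lower at TN (32.5% of 18032 genes tested were called, 15.9% higher and 16.7% lower). In KO 7 were called as well, 3 higher and 4 lower (15.2%, 6.64% higher and 8.52% lower). The TN and RT libraries did not overlap for 7 genes in WT (26.9% of all genes) and for 6 in KO (21.4%). The median log2 change of the 10 genes was 1.15 in WT and 0.73 in KO, against 0.11 and 0.04 over all genes. The KO value is the same with Elovl7 set at 2.98-fold higher. The 4 genes that fell were the same in both genotypes, Elovl3, Elovl6, Elovl4 and Elovl5, and each of them kept its call in all 23 alternatives run in WT and all 24 in KO.

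**Figure D3:**
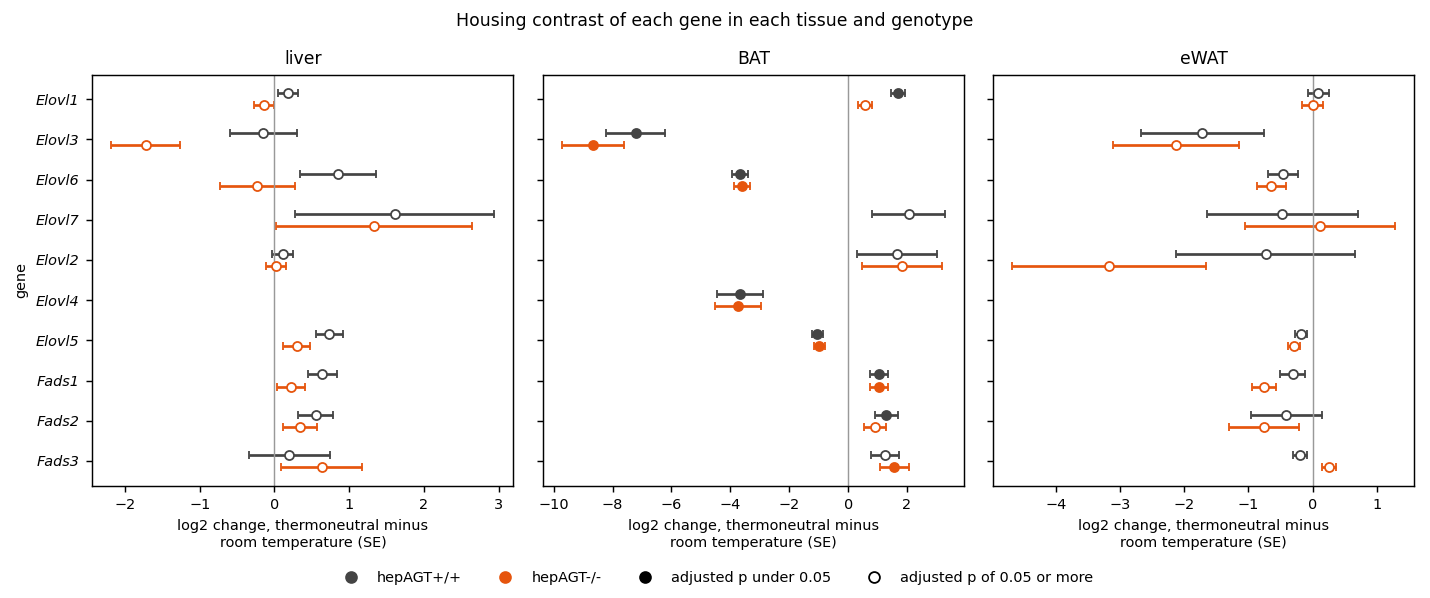
Log2 change from room temperature to thermoneutral housing (horizontal axis, with SE bars) of each gene in liver, BAT and eWAT, for hepAGT+/+ and hepAGT-/- mice (n = 4 per group). Filled points passed the adjusted p threshold of 0.05, which happened in BAT only, where Elovl3 lies at -7.22 and -8.66, and Elovl7 in hepAGT-/- BAT and Elovl4 in liver and eWAT are left out because a group was at 0 or the gene was not tested.

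Elovl5, the elongase of the polyunsaturated route that acts on the products of Fads2, was 135, 108, 124 and 127 CPM in WT RT and 57.5, 52, 59.4 and 71.6 CPM in WT TN. In KO it was 201, 102, 113 and 135 CPM at RT and 85, 71.2, 59.7 and 70.4 CPM at TN. Every TN library was below every RT library, a fall of 2.07-fold in WT (log2 change -1.05, SE 0.18, edgeR adjusted p = 0.000374) and 1.97-fold in KO (-0.98, SE 0.18, adjusted p = 0.00157). Elovl4 was low throughout but fell 12.7-fold in WT (log2 change -3.67, SE 0.78, edgeR adjusted p = 0.0017). It went from 2.82, 1.68, 1.19 and 1.63 CPM to 0.259, 0.172, 0.0556 and 0.0776 CPM, the latter from 8, 6, 2 and 2 counts. In KO the 4 Elovl4 values were 2.96, 1.25, 1.33 and 2.78 CPM at RT and 0.0825, 0.416, 0.12 and 0 CPM at TN (13.4-fold, edgeR adjusted p = 0.00326). These TN values came from 3, 14, 4 and 0 counts. With so few counts at TN, both fold sizes are rough.

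Elovl1 rose at TN in WT and Elovl7 in KO. Elovl1 was 4.09, 4.8, 6.22 and 3.48 CPM in WT RT and 12.8, 13.4, 15.7 and 18.6 CPM in WT TN, with no overlap, and rose 3.22-fold (log2 change 1.69, SE 0.25, edgeR adjusted p = 9.89e-05). In KO its values were 9.13, 7.29, 6.87 and 12.4 CPM at RT and 18.5, 9.96, 14.5 and 10.5 CPM at TN, which overlapped (log2 change 0.56, SE 0.24, adjusted p = 0.139). The 2 changes were not shown to differ, since the interaction of genotype and housing was not called for any of the 10 genes. Elovl7 was at 0 counts in all 4 KO RT libraries and at 0.633, 0.0595, 0.179 and 0.379 CPM in KO TN (edgeR adjusted p = 0.025). Its KO TN mean was about 2.98-fold above a floor of 3 counts per library. That floor used library totals without TMM factors, so the fold is approximate and no strict lower bound. In WT, Elovl7 was 0.0362, 0.286, 0 and 0 CPM at RT and 0.129, 0.286, 0.667 and 0.388 CPM at TN (edgeR adjusted p = 0.216).

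The desaturases lay higher at TN. Fads1, which makes arachidonate and eicosapentaenoate, was 13.1, 10.9, 10.6 and 10.7 CPM in WT RT and 23, 21.8, 19.4 and 29.8 CPM in WT TN, a rise of 2.06-fold with no overlap (log2 change 1.05, SE 0.30, edgeR adjusted p = 0.0126). In KO it was 11.4, 11.9, 11 and 24.5 CPM at RT and 53.7, 23.5, 19.8 and 26.7 CPM at TN, where replicate 9 at RT reached into the TN range (log2 change 1.05, SE 0.30, adjusted p = 0.0229). Fads2, the first enzyme of the polyunsaturated route, rose from 8.11, 7.27, 6.35 and 4.71 CPM to 11.4, 13.6, 19 and 21.6 CPM in WT, 2.46-fold (log2 1.30, SE 0.38, adjusted p = 0.0149). Its KO values, 14.3, 8.34, 8.3 and 18.1 CPM at RT and 45.1, 12.5, 15.5 and 19.7 CPM at TN, overlapped (log2 change 0.90, SE 0.37, adjusted p = 0.12).

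Fads3 was 15.5, 26.2, 21.4 and 82.6 CPM in WT RT and 94.2, 74.1, 103 and 77.9 CPM in WT TN. WT RT replicate 18 lay within the TN range and the other 3 far below it. The change missed the threshold (log2 change 1.26, SE 0.48, edgeR adjusted p = 0.0602), and without that replicate it was 2.04 (adjusted p = 0.000821). In KO, Fads3 rose from 15.3, 23.2, 9.35 and 16.3 CPM to 79, 48.9, 34.7 and 30 CPM with no overlap (log2 change 1.56, SE 0.49, adjusted p = 0.0453). Elovl2 was 1.23, 1.86, 0.852 and 0.673 CPM in WT RT and 0.259, 2.29, 5.84 and 6.56 CPM in WT TN (adjusted p = 0.374). Over both genotypes, 9 of the 10 genes were called (38.5% of all genes), all except Elovl2.

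The rises in BAT were less stable than the falls. In KO the count of called genes went from 7 to 4 without KO RT replicate 10, 14 or 19 or KO TN replicate 2, where Fads1, Fads3 and Elovl7 lost their calls, and in WT Fads2 lost its call without WT RT replicate 18 (adjusted p = 0.0512). The sum of 8 hepatocyte markers was 20.9 to 348 CPM in WT RT, 8.99 to 725 in KO RT, 118 to 961 in WT TN and 36.3 to 2805 in KO TN, with all 8 markers detected in each group and the highest value in KO TN replicate 2. The sum of 8 skeletal muscle markers, all detected in each group, was 1.34 to 491 CPM in WT RT, 2.24 to 3720 in KO RT, 8.92 to 5411 in WT TN and 1.57 to 7357 in KO TN. KO TN replicate 2 was the highest of its group in this sum too, and in Fads1, Fads2, Fads3 and Elovl1. In WT TN the muscle sum was 5386 and 5411 CPM in replicates 24 and 6, and 8.92 and 11.6 CPM in replicates 7 and 1. Fads2 and Elovl1 were lower in replicates 24 and 6 than in replicates 7 and 1, and Fads1 and Fads3 had no such order. The part of muscle transcripts in these changes was not tested. With the 2 BAT libraries richest in hepatocyte transcripts left out, KO TN replicates 2 and 5, 4 genes were called in KO and the Fads1 change was 0.56 (adjusted p = 0.258). That fit kept only 2 KO TN libraries, and calls over all genes went from 2735 to 1101 in it. With Alb as a covariate 4 were called in KO too (Fads1 0.77, adjusted p = 0.0509), while in WT Fads1 was 0.75 (adjusted p = 0.0351) and Fads2 0.78 (adjusted p = 0.0157). These alternatives were chosen after seeing the data. The sum of 8 macrophage markers was 59 to 159 CPM at RT and 226 to 609 CPM at TN, and that of 7 brown adipocyte markers 8195 to 13790 CPM at RT and 3783 to 7897 CPM at TN. Their part in these changes was not tested, and in bulk tissue fewer cells of a type cannot be told apart from less RNA per cell.

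Of 61 other genes of the pathway, chosen with earlier results of these data known, 59 were tested in BAT. In WT 31 fell and 3 rose at TN (16.7% and 15.9% of all genes), and in KO 24 fell and 0 rose (8.52% and 6.64%). All 6 enzymes that supply the acyl-CoA substrate fell in both genotypes, with a median log2 change of -2.88 in WT and -2.69 in KO, among them Acss2 (-2.76 and -2.64), the malic enzyme Me1 (-3.00 and -2.97) and the carboxylase Acaca (-2.74 and -2.41). The elongation partners Hsd17b12 (-1.94 and -1.74), Tecr (-1.65 and -0.91) and Hacd2 (-1.09 and -1.43) fell in both genotypes. Hacd4 rose in WT (1.30), as did the acyltransferase Mboat2 (2.11) and the ceramide synthase Cers5 (0.51), and Hacd4 and Mboat2 are named here because they rose.

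Of the 4 desaturases of saturated chains, 3 fell in each genotype, Scd1 by 1.35 on the log2 scale in WT and by 1.87 in KO. In the same comparison fell the acyl-CoA synthetase Acsl5 (-3.50 and -3.43), the peroxisomal thiolase Scp2 (-1.02 and -0.72), the acyltransferase Agpat2 (-2.48 and -2.18) and Insig1 (-2.08 and -2.47), which holds back the sterol-regulated transcription factors. These lists fell only in part. Called lower were 3 of 5 acyl-CoA synthetases in WT and 2 in KO, and 6 of 8 peroxisomal genes in WT and 4 in KO. Of 7 phospholipid acyltransferases 3 were lower in WT and 2 in KO, and of 13 transcription regulators 5 and 3. The ceramide synthases had 1 call of 5 tested in WT and 0 of 5 in KO.

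Between genotypes in BAT, edgeR called 0 of 10 genes at RT (0.0887% of all genes) and 0 of 10 at TN (0%). At RT 4 of them had an unadjusted p under 0.05, and DESeq2 called 1. At TN 0 had an unadjusted p under 0.05, and DESeq2 called 0. Elovl1 came nearest at RT, with 8.93 ± 2.53 CPM in KO and 4.65 ± 1.18 CPM in WT (n = 4 each), log2 change 0.96 (SE 0.25, adjusted p = 0.0981), and the 4 KO libraries lay above the 4 WT libraries. It was called by DESeq2 (0.95, adjusted p = 0.0157) and in edgeR without WT RT replicate 12 (0.90, adjusted p = 0.0441). With Alb as a covariate, Elovl1 (0.93, adjusted p = 0.0423) and Fads2 (0.85, adjusted p = 0.0472) were both called. The groups were apart for Elovl1 and Fads2 at RT (2 of 10, against 9.38% of all genes) and for 0 of 10 at TN (3.4%).

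In liver at TN, Elovl5 was lower in KO. It was 1061, 1333, 1316 and 1856 CPM in WT replicates 1, 24, 6 and 7 and 729.6, 654, 934 and 714 CPM in KO replicates 2, 22, 4 and 5. All 4 KO libraries were below all 4 WT libraries, with means of 758 ± 122 and 1391 ± 334 CPM (SD), 1.79-fold lower in KO (log2 change -0.84, SE 0.18, edgeR adjusted p = 0.0146). It was the only called gene of 9 tested (3.18% of 17594 genes were called), and without WT TN replicate 7, the highest library, the change was -0.66 (adjusted p = 0.0572). Elovl4 did not pass the filter on low counts in liver.

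**Figure D4:**
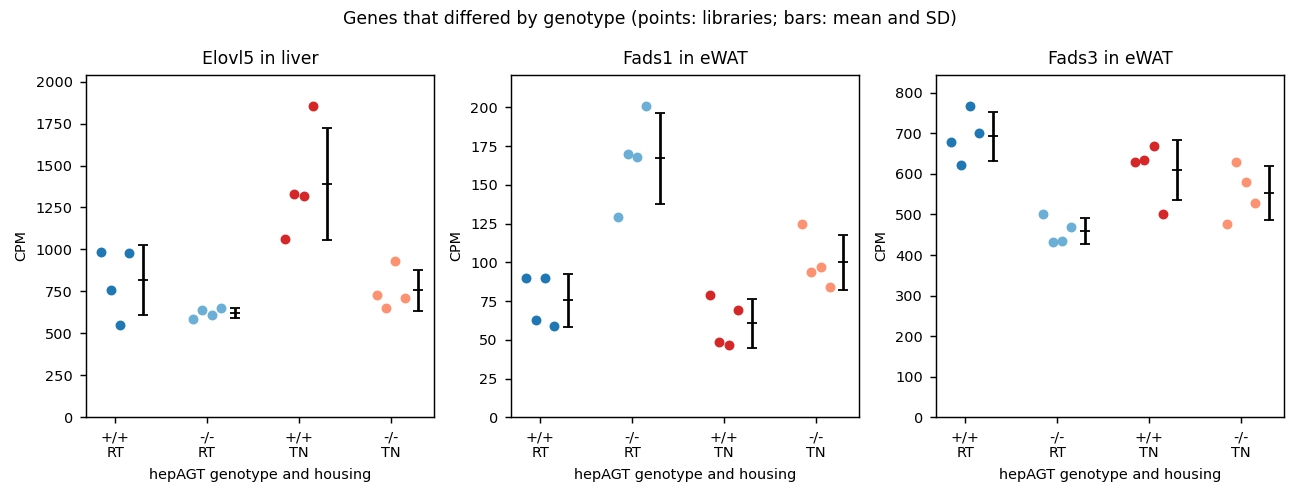
Elovl5 in liver, Fads1 in eWAT and Fads3 in eWAT, in CPM on the vertical axis, by hepAGT genotype and housing. Points are the 4 libraries of a group and bars the mean and SD: Elovl5 has 1391 ± 334 CPM in hepAGT+/+ and 758 ± 122 CPM in hepAGT-/- at thermoneutrality, Fads1 75.4 ± 16.9 and 167 ± 29.4 CPM at room temperature, and Fads3 693 ± 59.7 and 459 ± 32.9 CPM at room temperature.

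At RT, liver Elovl5 was 984, 761, 552 and 981 CPM in WT replicates 11, 12, 15 and 18 and 585, 638, 611 and 652 CPM in KO replicates 10, 16, 19 and 9. These overlapped at the lowest WT library (log2 change -0.41, SE 0.18, edgeR adjusted p = 0.422). Over both temperatures Elovl5 was lower in KO (-0.63, SE 0.13, adjusted p = 0.00659), again the only called gene of 9 (5.19% of all genes). At RT 0 of 9 genes were called (0.0853%), 1 had an unadjusted p under 0.05, DESeq2 called 0, and the groups were apart for 0 of 9 (5.61%).

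Elovl6 and Elovl3 were also lower in every KO liver at TN without passing the test. Elovl6 was 268, 826, 253 and 402 CPM in WT and 152, 215, 156 and 157 CPM in KO (log2 change -1.33, SE 0.51, edgeR adjusted p = 0.194). Elovl3 was 101, 93.3, 87 and 94.6 CPM in WT and 44.3, 40.4, 52.1 and 33.9 CPM in KO (-1.11, SE 0.46, adjusted p = 0.226). With these 2 and Elovl5, the groups were apart for 3 of 9 genes, against 13% of all genes. In a fit to the 8 libraries compared, which leaves out the widely spread KO RT group, Elovl3 was called (adjusted p = 0.00384). Elovl2, Elovl1, Fads1 and Fads2 in liver overlapped between genotypes at TN, with log2 changes of -0.15, -0.06, -0.18 and -0.34.

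Of the other pathway genes, 14 of 55 tested were called in liver at TN (3.18% of all genes), all lower in KO, and 0 of 55 at RT (0.0853%). In the peroxisomal step that shortens the last precursor to docosahexaenoate 5 of 8 were lower, among them Hsd17b4 (log2 change -0.78) and Acaa1b (-0.73). Of the stearoyl-CoA desaturases 2 of 3 tested were lower, Scd1 (-1.04), which makes oleate, and Scd3 (-3.36). Also lower were Hsd17b12 (-0.54), which carries out the second step of each elongation round, the phospholipid acyltransferases Agpat2 (-0.67), Lclat1 (-0.56) and Agpat3 (-0.53), and Pparg (-1.24). None of the 6 substrate enzymes was called, although their median was -0.90 against 0.05 over all genes. The sum of 8 macrophage markers was 305 to 708 CPM in KO TN livers and 237 to 276 CPM in WT TN livers, with all 8 detected in both, and that of 8 B cell and lymph node markers 18 to 40.6 CPM and 9.14 to 16.5 CPM. Neither pair of ranges overlapped, and their part in these differences was not tested.

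Housing called 0 of 9 genes in WT liver (0.0227% of all genes) and 0 of 9 in KO liver (0.114%). In WT 3 genes had an unadjusted p under 0.05 and DESeq2 called 1, and in KO the numbers were 1 and 1. All 3 polyunsaturated genes with separate groups in WT were higher at TN. Fads1 was 528, 384, 364 and 529.8 CPM at RT and 697, 705, 617 and 866 CPM at TN (log2 change 0.64, SE 0.19, edgeR adjusted p = 0.4). Fads2 was 1125, 876, 722 and 1104 CPM at RT and 1633, 1213, 1281 and 1603 CPM at TN (0.55, SE 0.23, adjusted p = 0.617). For Elovl5 it was 0.73 (SE 0.18, adjusted p = 0.222, and 0.0309 in DESeq2). These 3 of 9 stand against 3.98% of all genes with separate groups.

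In KO liver the groups were apart only for Elovl5 among the 9 genes (7.29% of all genes). KO RT livers were uneven for several genes. Elovl3 was 236, 43.7, 61.2 and 224 CPM in replicates 10, 16, 19 and 9, whereas Fads2 was 557, 1435, 937 and 616 CPM and Fads1 368, 786, 584 and 424 CPM in the same order. The replicates highest in Elovl3 were thus lowest in both desaturases. The Elovl3 change from RT to TN in KO was -1.72 (SE 0.46, edgeR adjusted p = 0.154), and DESeq2 called it (-1.70, adjusted p = 0.0139).

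Fads1 and Fads2 varied together among liver libraries of the same group. Their log2 CPM values, each less the mean of its group, had a Pearson r of 0.92 over 16 libraries (permutation p = 0.00068, adjusted p = 0.0204 over 30 pairs of genes and tissues). Spearman's rho was 0.85 (permutation p = 0.00368, adjusted p = 0.11). Without the 2 libraries farthest from the median of Fads1, r was 0.84 (permutation p = 0.00789, adjusted p = 0.237), so that the adjusted call was lost. Each of the 30 pairs was recomputed without its own 2 farthest libraries. Fewer libraries also allow fewer permutations, so this loss cannot show whether the call rests on those 2. In BAT r was 0.79 (adjusted p = 0.126), and in eWAT it was 0.12 (adjusted p = 0.737). Since the values were centred on the means of the 4 groups, differences between groups do not enter r.

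**Figure D5:**
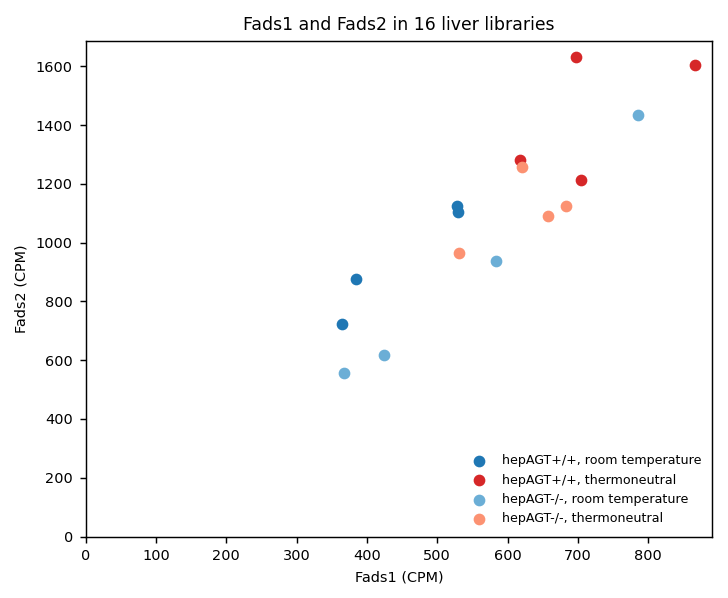
Fads2 (vertical axis, CPM) against Fads1 (horizontal axis, CPM) in the 16 liver libraries, coloured by genotype and housing. Libraries high in Fads1 tend to be high in Fads2. Within hepAGT-/- at room temperature, the highest library has 786 and 1435 CPM and the lowest 368 and 557 CPM. The plotted values are not centred on group means, so differences between groups show here as well.

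In eWAT, genotype separated Fads1 and Fads3 in opposite directions at RT. Fads1 was 89.9, 62.8, 90.1 and 58.9 CPM in WT replicates 12, 13, 15 and 18 and 129, 170.1, 168 and 201 CPM in KO replicates 10, 16, 19 and 9. All KO libraries were above all WT libraries, with a 2.23-fold higher level in KO (log2 change 1.16, SE 0.20, edgeR adjusted p = 0.00445). Fads3 was 679, 623, 768 and 701 CPM in WT and 501, 433, 434 and 469.6 CPM in KO, again with no overlap, and was 1.5-fold lower in KO (-0.58, SE 0.11, adjusted p = 0.00872). These were 2 of 9 genes tested (4.34% of 18933 genes were called) and the only 2 with separate groups (10.6% of all genes). Fads2, which lies between them on the chromosome, was 20.8, 28.4, 8.84 and 46.2 CPM in WT and 16.5, 52.2, 40.6 and 17.2 CPM in KO, and did not pass (log2 change 0.29, SE 0.55, adjusted p = 0.857).

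At TN, eWAT Fads1 was 78.8, 48.4, 46.8 and 69.4 CPM in WT replicates 23, 6, 7 and 8 and 125, 93.5, 97 and 84.2 CPM in KO replicates 21, 3, 4 and 5. The groups were apart, but the change missed the threshold (log2 change 0.71, SE 0.19, edgeR adjusted p = 0.0906, and 0.0111 in DESeq2). Fads3 overlapped at TN, with 630.3, 635, 669.9 and 502 CPM in WT and 476, 630, 581 and 529 CPM in KO (-0.14, SE 0.11, adjusted p = 0.64). At TN 0 of 9 genes were called (0.586%), 2 had an unadjusted p under 0.05, DESeq2 called 1, and the groups were apart for Fads1 and Elovl5 (9.46% of all genes). Over both temperatures Fads1 was higher (0.94, SE 0.14, adjusted p = 0.000935) and Fads3 lower in KO (-0.36, SE 0.08, adjusted p = 0.00894), 2 of 9 against 8.46%.

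Hepatocyte markers in eWAT summed to 1264 to 3021 CPM in WT RT, 2458 to 7035 in KO RT, 647 to 1921 in WT TN and 1090 to 2099 in KO TN, with all 8 detected in each group. Much of this sum was Cyp2e1, at 1010 to 1320 CPM in WT RT, 1305 to 1963 in KO RT, 394 to 967 in WT TN and 608 to 1626 in KO TN, while Alb ran from 18 to 2254 CPM over the 16 libraries. Both of these levels are TMM-scaled, whereas the sum is not. With the sum as a covariate Fads1 at RT was 1.21 (edgeR adjusted p = 0.0322) and Fads3 -0.48 (adjusted p = 0.0928), which ended the Fads3 call, also over both temperatures (-0.29, adjusted p = 0.0793). With Alb alone as the covariate both calls stood, Fads1 at 1.19 (adjusted p = 0.00634) and Fads3 at -0.53 (adjusted p = 0.0162). Both covariates were chosen after seeing the data. Of the 59 other pathway genes tested, 4 were called at RT, near the share of all genes (4.34%), the carboxylase Acaca (0.72) and the coactivator Ppargc1a (1.30) higher, and Hacd4 (-0.80) and the ceramide synthase Cers4 (-0.78) lower, and 0 at TN (0.586%). Macrophage markers (8 of 8 detected) summed to 1016 to 1411 CPM in WT RT, 792 to 1057 in KO RT, 1583 to 2539 in WT TN and 1221 to 1428 in KO TN, so that the genotypes were apart at TN. The 7 brown adipocyte markers summed to 57.6 to 68.8 CPM in WT RT and 42.2 to 55.3 CPM in KO RT, also apart. Epididymis markers, another tissue the dissection could hold, summed to 882 CPM in the highest WT RT library and to 12.4 CPM or less in the other groups. The part of these 3 lists in the differences was not tested.

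Housing called 0 of 9 genes in WT eWAT (0% of all genes) and 0 of 9 in KO eWAT (1.74%). In WT 0 genes had an unadjusted p under 0.05 and DESeq2 called 0, whereas in KO 5 had one and DESeq2 called 3. Fads1 missed the threshold in KO, with 167 ± 29.4 CPM at RT and 100 ± 17.6 CPM at TN (n = 4 each, log2 change -0.76, SE 0.19, edgeR adjusted p = 0.0558). It passed with another scaling of library sizes (-0.77, adjusted p = 0.0468), with a stricter filter (-0.79, adjusted p = 0.039) and in DESeq2 (-0.77, adjusted p = 0.0029), as well as without WT RT replicate 18 (-0.78, adjusted p = 0.0443), WT TN replicate 23 (-0.75, adjusted p = 0.047) or WT TN replicate 6 (-0.78, adjusted p = 0.0488). Elovl6 in KO was 59.1, 57, 81.7 and 83.6 CPM at RT and 53, 48.8, 53.6 and 26.5 CPM at TN (-0.64, SE 0.23, adjusted p = 0.154). The groups were apart for Fads1 and Elovl6 in KO (9.19% of all genes) and for Elovl5 in WT (4.11%).

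An F test over the 3 tissues asked whether an effect was the same in each. The housing effect differed between tissues for 5 of 10 genes in WT (15% of 21910 genes), Elovl6 (adjusted p = 3.39e-07), Elovl5 (3.48e-06), Elovl1 (2.69e-05), Elovl3 (3.98e-05) and Fads1 (0.014). In KO it differed for 4 of 10 (4.06%), Elovl6 (5.64e-05), Elovl3 (0.000129), Elovl5 (0.00292) and Fads1 (0.00401, or 0.0611 with the replicate number as a block, which ends that call). For Elovl5 the WT changes beside each other were -1.05 in BAT, -0.18 in eWAT and 0.73 in liver, and for Fads1 1.05, -0.31 and 0.64. In KO, Fads1 had 1.05 in BAT, -0.76 in eWAT and 0.22 in liver.

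The genotype effect differed between tissues for 1 of 10 genes at RT (2.06% of all genes), Elovl1 (adjusted p = 0.0409), with log2 changes of 0.96 in BAT, 0.25 in liver and -0.16 in eWAT. At TN it differed for 1 of 10 (0.904%), Elovl5 (adjusted p = 0.0245), with -0.84 in liver, -0.24 in eWAT and 0.25 in BAT. With the replicate number as a block, since same-numbered libraries may share a mouse, neither call stood (Elovl1 0.0832, Elovl5 0.11). The Elovl1 call was lost without any 1 of 8 libraries, BAT KO RT replicates 10 and 9, BAT WT RT replicates 15 and 18, eWAT KO RT replicates 10 and 9 and eWAT WT RT replicates 12 and 18 (adjusted p from 0.0625 to 0.119). The Elovl5 call was lost without liver WT TN replicate 7 (0.0798), liver KO TN replicate 5 (0.0551) or BAT WT TN replicate 6 (0.0544). The interaction of genotype and housing within a tissue was called for 0 of the 10 genes in each tissue by edgeR (0% of all genes), with 1 gene at an unadjusted p under 0.05 in each tissue and 0 called by DESeq2.

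The genes most like 4 of these genes over the 12 group means of log2 CPM, among 10640 genes, are given with Pearson's r, which describes points that share libraries and tissues. For Elovl3 they were Cgrrf1 (0.982), Mob1b (0.973) and Acsl5 (0.970), and for Elovl6 Sirt5 (0.981), Lonp1 (0.967) and Rmdn3 (0.967). For Fads2 they were Aqp8 (0.997), Hpn (0.996) and Chn2 (0.996), and for Fads1 Papss2 (0.992), Mapk1ip1l (0.988) and Cyp2e1 (0.988).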

How the data were processed

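The authors deposited raw read counts per Ensembl gene for each of 48 libraries. The submitters' processing notes name fastp, STAR 2.6.1d, featureCounts 1.5.0-p3 and GRCm38 (mm10); their settings, strand and annotation release are not given in the sources used here. Symbols came from GENCODE M21, which named 52073 of 56748 identifiers (91.8%). In edgeR 4.0.16 (R 4.3.3), counts of each tissue (16 libraries) were filtered (filterByExpr, minimum count 10), TMM-scaled and fitted by group with the quasi-likelihood test; tissues were compared in a fit to 48 libraries. DESeq2 1.42.0, other scaling, other filters, 8-library fits and leaving out each library were alternatives. Correlations used log2 CPM with a prior count of 2, centred on the group means, and 1e+05 permutations within groups. On simulated counts for liver KO against WT at TN (17594 genes), 66% of genes changed by a log2 fold of 1 and 92% of those changed by 2 were recovered. The changed genes were drawn only from those above a bound on mean counts, so these rates do not cover scarce genes such as Elovl7. Pathway genes were named up to 3 per list and comparison, by smallest adjusted p; 1 such gene is not reported here. Members and lists were chosen with earlier results of these data known.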

Additional observations from a re-analysis of the deposited data

Results flagged for a closer look

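In 10 of 116 groups of 4 libraries checked, a library stood apart from the other 3 by Dixon's test on CPM. For normally distributed values, chance alone gives about 1 of 20 groups, or 5.8 here. The CPM were not logged and include groups near 0, so 10 against 5.8 cannot be read as an excess. All 10 flagged libraries were the highest of their group. In BAT these were Elovl3 in KO RT replicate 10 (698 CPM), Elovl6 in WT RT replicate 18 (1847 CPM) and in KO TN replicate 3 (155 CPM), Elovl7 in WT RT replicate 15 (0.286 CPM), Fads1 in KO RT replicate 9 (24.5 CPM) and in WT RT replicate 12 (13.1 CPM), and Fads3 in WT RT replicate 18 (82.6 CPM). In liver they were Elovl6 in KO TN replicate 22 (215 CPM) and Elovl4 in KO TN replicate 5 (0.259 CPM), and in eWAT Elovl5 in WT RT replicate 12 (103 CPM).

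The F test found an effect that differed between tissues in 11 cases (edgeR adjusted p in parentheses). For genotype these were Elovl1 at RT (0.0409) and Elovl5 at TN (0.0245). For housing in WT they were Elovl1 (2.69e-05), Elovl3 (3.98e-05), Elovl6 (3.39e-07), Elovl5 (3.48e-06) and Fads1 (0.014), and in KO Elovl3 (0.000129), Elovl6 (5.64e-05), Elovl5 (0.00292) and Fads1 (0.00401).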

How the results depend on the processing

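Alternatives were scored for the 113 single-gene results with an unadjusted p under 0.05 in the main fit. Of their 3873 values, 3782 kept their side of the threshold, 48 lost and 43 gained a call, and 0 reversed direction. The F tests over tissues are among them and have no direction. Most alternatives left out only 1 library, so reversals were unlikely from the start. Counts of called genes moved as follows. DESeq2 called 1 in liver at TN against RT in WT, in KO and over both genotypes, 1 in BAT and 1 in eWAT for KO against WT at RT and TN respectively, and 3 in KO eWAT and 4 in eWAT over both genotypes at TN against RT, in place of 0 each. For those last 2, RLE scaling gave 1 and 1 and the filter of 1 CPM gave 1 and 2, and no filter gave 1 in liver over both genotypes. The fit to 8 libraries gave 2 for liver KO against WT at TN in place of 1. With Alb as a covariate BAT KO against WT at RT had 2 in place of 0 and BAT TN against RT in KO 4 in place of 7, as without the 2 hepatocyte-rich libraries; with the hepatocyte sum eWAT KO against WT at RT, and over both housings, had 1 in place of 2. Without the 2 farthest libraries 0 correlations passed in place of 1.

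Leaving out each library gave 0 to 1 for liver KO against WT at TN, liver TN against RT over both genotypes (1 without WT TN replicate 1), BAT KO against WT at RT, eWAT TN against RT in KO and over both genotypes, and for both genotype effects by tissue, and 4 to 7 for BAT TN against RT in KO. Replicate numbers were shared between tissues only, and a number shared by tissues always had the same genotype and housing. Same-numbered libraries correlated from -0.24 to 0.12 over 35 pairs, 11 best with their own number. Correlations between different tissues cannot show whether such libraries share a mouse. The main fits did not pair them, and the replicate block was run as an alternative. With the replicate block the genotype effects by tissue had 0 members at RT and 0 at TN (Elovl1 0.0832, Elovl5 0.11), Fads1 for housing in KO 0.0611, and all genes 47 in place of 198 (genotype at TN) and 394 in place of 889 (housing in KO).

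Over all genes, DESeq2 called more than edgeR in most comparisons, for instance 1111 in place of 560 for liver KO against WT at TN, 203 in place of 15 for liver KO against WT at RT, 981 in place of 16 for BAT KO against WT at RT, 1509 in place of 821 for eWAT KO against WT at RT, 675 in place of 111 for eWAT KO against WT at TN and 1154 in place of 330 for eWAT TN against RT in KO. The fit to 8 libraries called 0 in the last 2 and 0 in BAT KO against WT at RT, where RLE scaling and the filter of 1 CPM also called 0, no filter 47, the hepatocyte sum 135 and Alb 267. With the hepatocyte sum eWAT KO against WT had 167 at RT and 2 at TN, and eWAT TN against RT in KO had 1, against 84 with Alb. Without the 2 hepatocyte-rich libraries BAT TN against RT in KO had 1101 in place of 2735. The cause of these shifts was not tested. Depth limits Elovl4 and Elovl7, which were at or near the floor of 3 counts in many libraries.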
